A study of Mus musculus with 4 samples.

Results

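Pttg1, Gm10076, Gm47283, Wdr89, Rps27rt, Gstp1, Polr2l and Gm2a are 8 of the 32285 genes counted in a single-cell study of Kit-positive cells from mouse bone marrow. They were chosen from the measured values themselves, as genes among the largest shifts in the libraries with a single deletion, so the size of those shifts is a description and was not tested. The question addressed here is whether each gene was shifted by the same amount in every cell type of a library or only in some of them. The level of the 8 genes played no part in clustering the cells.

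The cells were CD45.2+Kit+ bone marrow cells taken 10 weeks after transplantation, and each was measured for RNA and for surface antibodies. There were 4 libraries, 1 per group: a control, a deletion of Mll3, a deletion of Mll4, and a deletion of both (Mll3/4). Kmt2c encodes Mll3 and Kmt2d encodes Mll4, both methyltransferases of histone H3 lysine 4. All 4 groups share the CD45.2 and Kit selection and the transplantation. The strain and sex of the animals, the way the alleles were deleted, the number of donors and the meaning of the 2 hashtags in each library are not given in the sources used here. With 1 library per group no difference could be tested against replicate spread. Every interval below is a 95% interval for counting error only.

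After filtering there remained 7034 control cells, 5729 cells of the Mll3 library, 5102 of the Mll4 library and 6783 of the Mll3/4 library. The median cell held 15670.5, 16803, 5079 and 9890 UMIs (unique molecular identifiers, each counted as 1 transcript) in the same order, so that values of the Mll4 library are the least precise. Kit, the receptor used for selection, stood at 104.6, 108.3, 170.8 and 189.7 CPM (UMIs scaled to a common library total) in the 4 libraries, and Ptprc, which encodes CD45, at 89.8, 66.5, 206.8 and 117.6 CPM. Kmt2c stood at 47.9, 27.1, 58.6 and 34.7 CPM and Kmt2d at 25.7, 21.5, 24.6 and 24.4 CPM. Over all cells the level of Kmt2d thus did not set the 2 libraries with an Mll4 deletion apart. Within cell classes its log2 ratio to control had a median of -0.20 in the Mll3 library, over 8 classes, and of -0.35 in the Mll4 library, where 8 classes ran from -0.61 to 0.16 and the median over all genes was 0.19. In B-cell progenitor-like cells of the Mll3/4 library it was -0.79. Reads at the 3′ end can persist where an exon upstream has been removed. Below, each deleted library goes by its label, as Mll3-labelled, as Mll4-labelled or as Mll3/4-labelled, and every direction given rests on those labels. Xist, the RNA of the inactive X chromosome, was at 988 CPM in control, 954 in the Mll3-labelled and 1835 in the Mll3/4-labelled library but at 0.555 in the Mll4-labelled library, whereas the Y-linked Ddx3y was at 32.3 CPM there and had 0 counts in the other 3. Sex and genotype cannot be told apart for the Mll4-labelled library.

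Cells fell into 9 classes with at least 50 cells in control and in both single-deletion libraries: HSC/MPP-like (hematopoietic stem cells and multipotent progenitors), megakaryocyte-like, erythroid progenitor-like, granulocyte progenitor-like, monocyte/macrophage progenitor-like, neutrophil-like, basophil/mast-like, B-cell progenitor-like, and cluster 5, which kept no name and was led by Ccl9, Cd34 and Flt3. Names rest on lists of marker genes, since the files hold no annotation of cells. Neutrophil-like cells lay mostly in clusters 1 and 12 in 2 libraries, the control and the Mll3-labelled one, but in clusters 2 and 13 in the Mll4-labelled library. In a finer clustering, a monocyte/macrophage progenitor-like cluster held 472 cells of the Mll4-labelled library and 1 of control, and another held 38 and 191. For basophil/mast-like cells such clusters held 149 and 15, and 60 and 111. Mll4-labelled ratios of these classes thus set partly different cells side by side. The Mll3/4-labelled library could be compared with control only in B-cell progenitor-like cells, with 4782 cells against 468. Those control cells lay in clusters 18 and 20, and those of the Mll3/4-labelled library in clusters 0, 6 and 22, which held 0 control cells.

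The 8 genes belong to unrelated pathways. Pttg1 encodes securin, which holds the protease separase inactive until anaphase and is normally made most in cells preparing to divide. Polr2l encodes a small subunit shared by RNA polymerases I, II and III, Gstp1 encodes a pi-class glutathione S-transferase, which conjugates glutathione to reactive compounds, and Gm2a encodes the activator that presents GM2 ganglioside to lysosomal hexosaminidase A. Wdr89 encodes a WD-repeat protein. Rps27rt is a retrogene of Rps27, a protein of the small ribosomal subunit. Gm10076 is a processed copy of Rpl41, a very short protein of the large subunit. Gm47283 is annotated at the end of the Y chromosome, where the pseudoautosomal region lies.

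In the mm10 build (GRCm38, GENCODE M21), Pttg1 lies on the minus strand at chr11:43420250-43426251 and Gm2a on the plus strand of the same chromosome at chr11:55098115-55113029. Wdr89 is at chr12:75630596-75669537, Polr2l at chr7:141471860-141475132 and Gstp1 at chr19:4035407-4037985, all on the minus strand. Gm47283 is on the plus strand at chrY:90784738-90816464. Rps27rt, at chr9:114982366-114982739 on the minus strand, is annotated as protein coding. Gm10076, at chr14:105681828-105682211 on the plus strand, is annotated as a lincRNA.

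For 3 of the 8 genes a near-identical copy was compared, since it bears on what a count means. The other genes were not searched for copies. The sequences are shown against the copy, 5′ to 3′, in lower case with any base that differs between the pair in capitals (GENCODE M21 transcripts). The coding sequence of Rps27rt and that of Rps27 were the same at all 252 bases, so the line below stands for both.
Rps27rt: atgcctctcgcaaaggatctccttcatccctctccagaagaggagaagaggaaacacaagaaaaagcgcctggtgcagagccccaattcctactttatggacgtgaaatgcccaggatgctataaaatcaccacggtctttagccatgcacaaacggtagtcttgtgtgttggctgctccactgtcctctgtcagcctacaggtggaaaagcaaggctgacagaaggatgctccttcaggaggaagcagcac
The 75 coding bases of Rpl41 recur without a difference in Gm10076.
Gm10076: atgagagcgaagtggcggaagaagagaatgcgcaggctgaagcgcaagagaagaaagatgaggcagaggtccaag
Rpl41: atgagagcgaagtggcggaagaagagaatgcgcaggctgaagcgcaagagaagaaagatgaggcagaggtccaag
Gstp1 and Gstp2 differed at 12 of 630 coding bases, 6 of them in the first 120.
Gstp1: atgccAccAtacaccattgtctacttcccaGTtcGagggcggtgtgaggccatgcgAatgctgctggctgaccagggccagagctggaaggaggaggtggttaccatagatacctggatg
Gstp2: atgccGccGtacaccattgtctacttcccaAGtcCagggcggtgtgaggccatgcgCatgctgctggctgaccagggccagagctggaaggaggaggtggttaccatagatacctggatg

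The likeness extends to the ends that a 3′ library reads. Rps27rt-201 and Rps27-201 shared an exact run of 341 bases, after which Rps27rt had 33 more bases that were 97.0% A. Gm10076-201 matched Rpl41-201 at 381 of 383 bases, including the last 150 of the aligned stretch. Gstp1-201 and Gstp2-201 were the same over their last 369 bases. Counts for these 3 genes are therefore uncertain: how reads that match both copies were assigned is not given in the sources used here.

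Relative to control, 2 of the 8 genes passed 2-fold in the same direction in every measured class of the Mll3-labelled library, Gm10076 and Rps27rt. Among all 10891 genes measured in at least 3 classes, 0.294% did so. The Mll4-labelled library had 4 of the 8, Pttg1, Gm10076, Gm47283 and Polr2l, against 0.898% of 8686 genes. By the median over classes, 6 of the 8 passed 2-fold in the Mll3-labelled library, where 1.14% of all genes did, and 5 in the Mll4-labelled library, where 4.55% did. Since these comparisons chose the genes, nothing follows from the difference between those shares. The median over all genes of the class median log2 ratio was -0.04 for the Mll3-labelled and 0.19 for the Mll4-labelled library. Scaling each class by trimmed means of M-values (TMM) instead lowered the ratios of the Mll4-labelled library, to 1.66 for Pttg1 and -0.41 for Rps27rt by the class median, and reversed none of the 16 class medians. With it Pttg1 no longer passed 2-fold in every class of that library, which left 3 of the 8 genes, beside 68 of all 8686. The spread between the lowest and highest class had a median of 0.51 log2 units over the 8 genes and 0.57 over all genes in the Mll3-labelled library, and 0.69 in both sets in the Mll4-labelled library. Gm10076 and Gm47283 thus held nearly the same ratio across classes in the Mll3-labelled library, while Pttg1 and, in the Mll4-labelled library, Gm2a did not.

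**Figure D1:**
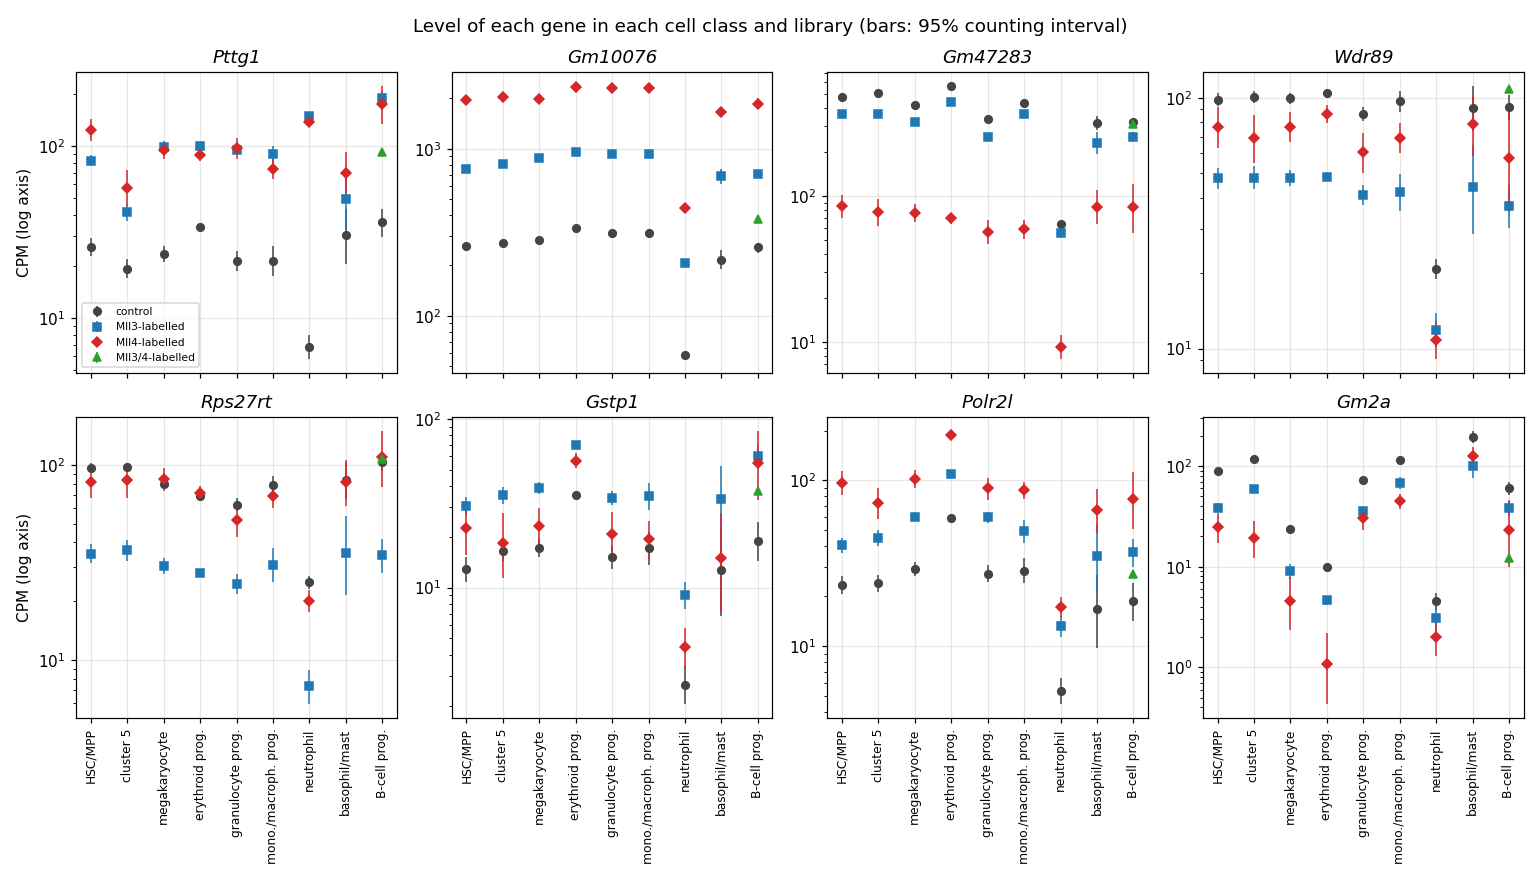
Level of the 8 genes, in CPM on a log axis, in each of 9 cell classes (horizontal axis) and each library (marker shape), with 95% counting intervals as bars. Gm10076 has the same order of libraries in all 9 classes, from control at 58.1 to 333.4 CPM to the Mll4-labelled library at 439.8 to 2352 CPM; in control each gene is lowest in the neutrophil-like class.

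**Figure D2:**
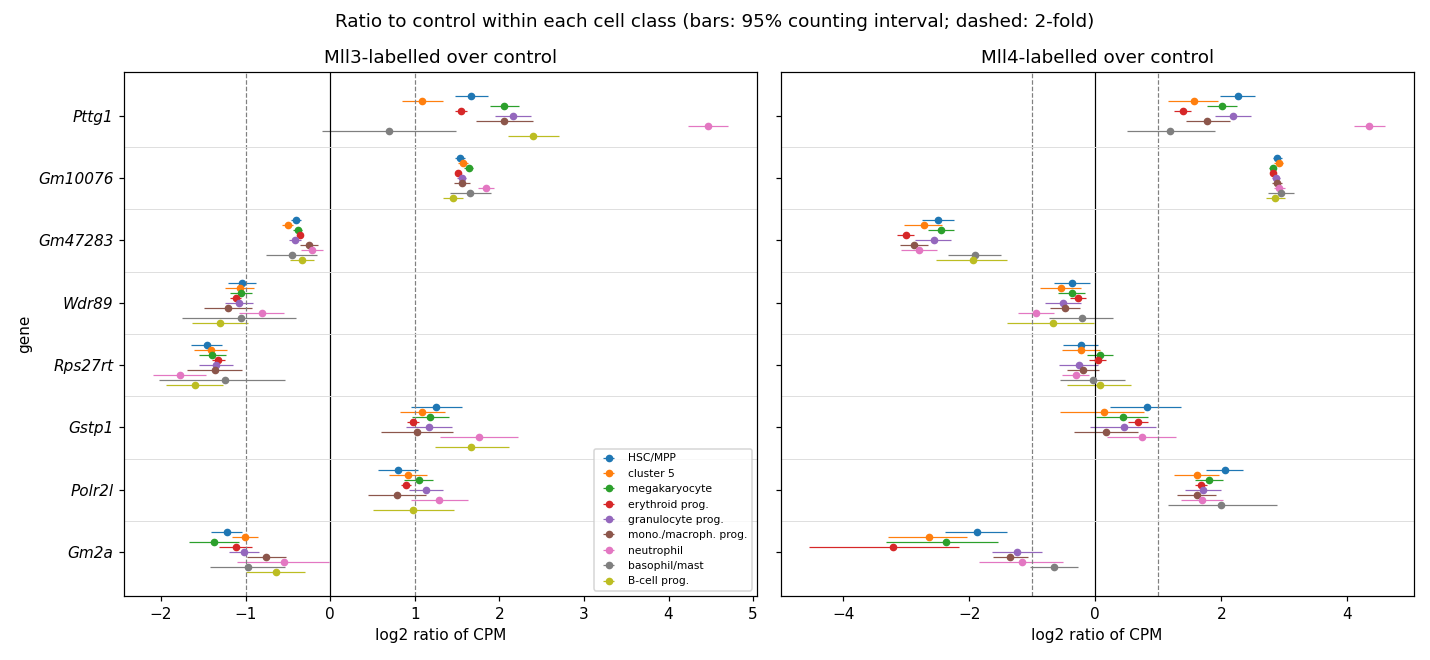
Log2 ratio of each gene to control in each cell class (colours), in the Mll3-labelled (left) and the Mll4-labelled library (right), with 95% counting intervals as bars and dashed lines at 2-fold. The points of Gm10076 lie close together in both panels, at 1.46 to 1.84 and at 2.81 to 2.94, whereas those of Pttg1 run from 0.70 to 4.46 and from 1.19 to 4.35.

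Pttg1, the securin gene, was higher than control in every measured class of both single-deletion libraries, but by amounts that differed more between classes than for any other of the 8 genes. Over all kept cells it stood at 25.6 CPM in control, 100.9 in the Mll3-labelled, 109.1 in the Mll4-labelled and 93.1 in the Mll3/4-labelled library. Control was the lowest library, and the other 3 lay within a narrow range. In neutrophil-like cells the level was 6.8 CPM in control against 149.7 in the Mll3-labelled library, a log2 ratio of 4.46 (4.23 to 4.70), and 138.5 in the Mll4-labelled library, a ratio of 4.35 that sets different clusters side by side. Within cluster 1 alone, control and the Mll3-labelled library stood at 5.7 and 143.9 CPM. In basophil/mast-like cells the Mll3-labelled ratio was 0.70 (-0.09 to 1.48), an interval that includes no difference. In B-cell progenitor-like cells the level was 36.0 CPM in control, 189.4 in the Mll3-labelled, 175.3 in the Mll4-labelled and 92.6 in the Mll3/4-labelled library.

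The 2 clusters of HSC/MPP-like cells differed in Pttg1, although Hlf and Mecom were among the leading genes of both. In cluster 9, led by Hlf, Ly6a and Mecom, Pttg1 was at 25.9 CPM (21.7 to 30.7) in control. It was at 21.5 CPM (17.0 to 26.9) in the Mll3-labelled library, with overlapping intervals. In cluster 15, led by replication-dependent histone genes and Cd34, the same libraries stood at 25.9 CPM (22.1 to 30.3) and 124.1 CPM (114.7 to 134.0). Control thus had the same level in both clusters and the Mll3-labelled library did not. The Mll4-labelled library had 68.8 CPM, from 28 counts, in cluster 9 and 144.5 CPM in cluster 15.

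Because securin is a gene of dividing cells, cells were then grouped by transcripts of 18 mitotic genes, among them Top2a, Mki67, Cdk1 and Plk1. This grouping was added after the levels by cluster had been seen. Each cell was thinned to 2000 UMIs and placed at 0, at 1 to 3, or at 4 or more mitotic UMIs, which left out 83 to 243 shallower cells per library. The groups are ranges of a count and not cell types: between 295 and 704 cells per library lay at 3 or 4, on either side of the upper limit. Top2a itself went from 76.0 to 751.3 CPM between the lowest and the highest group in control.

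In control, Pttg1 did not follow the mitotic transcripts: it was at 23.3 CPM (21.3 to 25.3) in cells with 0 mitotic UMIs, 27.2 in cells with 1 to 3 and 25.6 (24.5 to 26.7) in cells with 4 or more. In the Mll3-labelled library the same 3 groups stood at 39.9, 75.7 and 123.2 CPM, and in the Mll4-labelled library at 40.8, 62.5 and 143.1 CPM. The highest group was 3.09-fold above the lowest in the Mll3-labelled and 3.51-fold in the Mll4-labelled library, against 1.10-fold in control and 1.18-fold in the Mll3/4-labelled library. Within single classes the control fold lay between 0.83 in B-cell progenitor-like cells and 2.04 in cluster 5, and the Mll3-labelled fold between 1.69 in erythroid progenitor-like and 8.86 in B-cell progenitor-like cells. Other genes of the same step did follow mitosis in control. Cdc20, which activates the ubiquitin ligase that removes securin, was 6.89-fold higher in the highest than in the lowest group of control, and Espl1, which encodes separase, 14.2-fold.

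Within HSC/MPP-like cells the control level of Pttg1 was 26.1 CPM at 0 mitotic UMIs and 26.6 at 4 or more, while the Mll3-labelled library went from 19.8 to 129.0 CPM. Set against control, the Mll3-labelled log2 ratio was -0.39 (-0.97 to 0.16) in the lowest group and 2.28 (2.02 to 2.55) in the highest. Megakaryocyte-like cells gave 0.45 (-0.10 to 0.995) and 2.52 (2.30 to 2.74), and granulocyte progenitor-like cells 1.25 and 2.36. Erythroid progenitor-like cells changed least, from 1.03 to 1.65. Among HSC/MPP-like cells the shift of Pttg1 was thus not detectable at this depth in those with 0 mitotic UMIs after thinning and was 4.85-fold in those with 4 or more. The lowest group was not free of mitotic transcripts, since Top2a stood at 52.4 CPM there in control and at 54.1 CPM in the Mll3-labelled library. B-cell progenitor-like cells of the Mll3-labelled library had 27.7 CPM, from 8 counts, in the lowest group and 245.6 CPM in the highest, whereas those of the Mll3/4-labelled library had 86.5 and 99.8 CPM.

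**Figure D3:**
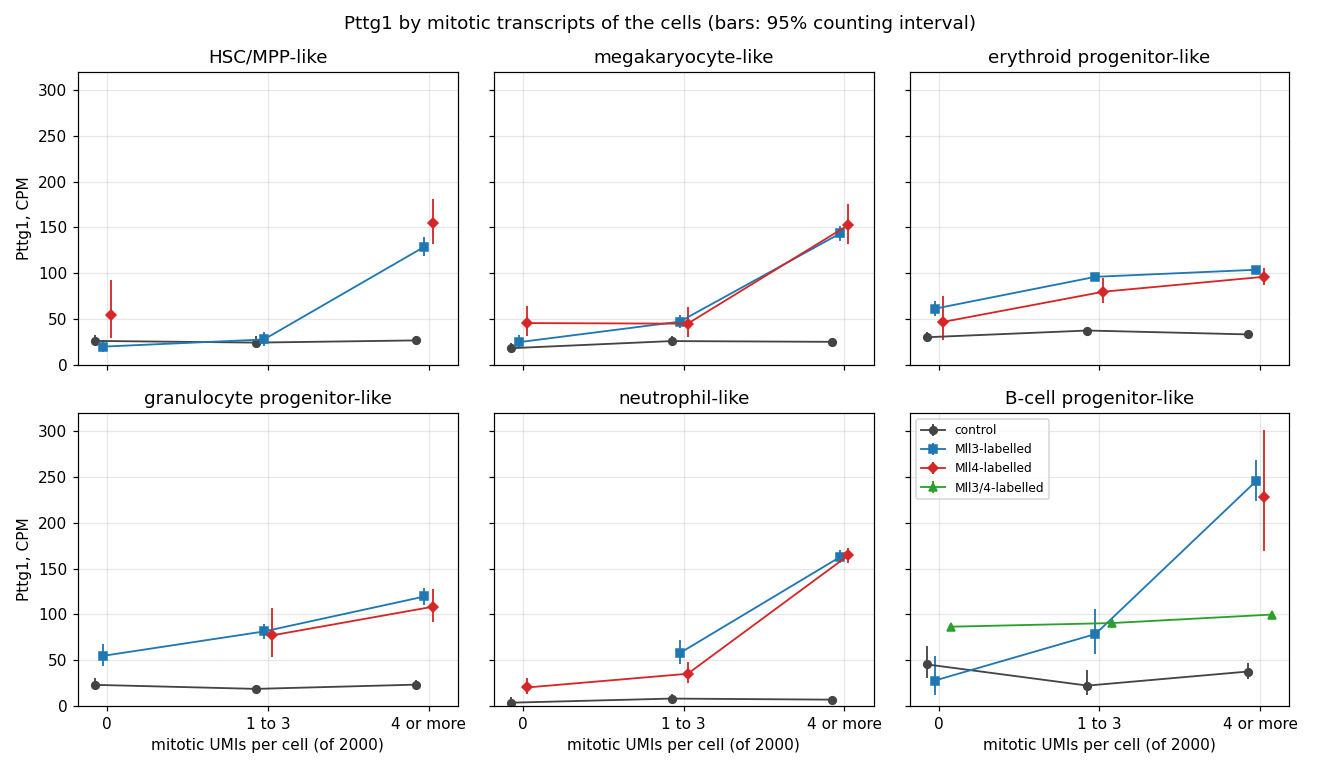
Pttg1 level in CPM (vertical axis) by mitotic UMIs per cell after thinning to 2000 UMIs (horizontal axis), in 6 cell classes and up to 4 libraries, with 95% counting intervals; groups under 50 cells are not drawn. Control stays at or under 45.3 CPM in all 6 panels, at 26.1 and 26.6 CPM in the outer groups of HSC/MPP-like cells, and the Mll3-labelled library goes from 19.8 to 129.0 CPM there.

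In the Mll3-labelled library the ratios of the other 7 genes changed less between these groups by the median over classes. There the log2 ratio of the highest group minus that of the lowest had a median over classes of 1.59 for Pttg1 (4 classes), -0.06 for Gm10076, 0.16 for Gm47283, 0.07 for Wdr89, 0.32 for Rps27rt, -0.02 for Gstp1, 0.06 for Polr2l and -0.10 for Gm2a. In single classes Pttg1 changed by 0.62 to 2.67 and Gm2a by -0.89 to 0.31, so the sizes of these 2 overlapped. For the Mll4-labelled library the change of Pttg1 could not be given by class, and the medians of the 5 genes measured ran from -0.34 for Gm47283 to 0.40 for Polr2l. In B-cell progenitor-like cells of the Mll3/4-labelled library Pttg1 changed by 0.48, Gstp1 by -2.09 and Gm10076 by -0.81. Gstp1 was at only 8.1 CPM in the lowest group of these cells in control. Its change thus rests on few counts, and the 3 sizes cannot be ranked. Of 18 genes of securin, separase and cohesin, Pttg1 was the only one whose class median passed 2-fold in the Mll3-labelled or in the Mll4-labelled library; the list medians were 0.01 and 0.32, beside all-gene medians of -0.04 and 0.19. In the Mll3/4-labelled B-cell progenitor-like cells Wapl, which releases cohesin from DNA, passed it too, at 1.36.

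Gm10076, the Rpl41 copy, was higher in both single-deletion libraries by nearly the same ratio in every class. It stood at 270.8 CPM in control, 835.2 in the Mll3-labelled, 1483 in the Mll4-labelled and 376.3 in the Mll3/4-labelled library. The class ratios lay between 1.46 and 1.84 (log2) in the Mll3-labelled and between 2.81 and 2.94 in the Mll4-labelled library, in all 9 classes. Rpl41 itself had class medians of 0.20 and 0.49. As a share of the Gm10076 and Rpl41 counts together, Gm10076 made up 8.44% in control, 19.3% in the Mll3-labelled, 33.2% in the Mll4-labelled and 8.57% in the Mll3/4-labelled library. The class ranges of that share did not overlap between control (7.91% to 9.22%), the Mll3-labelled (18.8% to 20.6%) and the Mll4-labelled library (32.1% to 34.4%), and the Mll3/4-labelled value lay within the control range. Classes of 1 library are not replicates and Gm10076 was chosen for its shift, so these ranges are a description. The Mll3/4-labelled log2 ratio of Gm10076 in B-cell progenitor-like cells was 0.57 in CPM, beside 0.69 for Rpl41.

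Rps27rt, the Rps27 retrogene, was lower in all 9 classes of the Mll3-labelled library, with ratios from -1.77 to -1.24. It stood at 68.6 CPM in control, 27.1 in the Mll3-labelled, 52.3 in the Mll4-labelled and 112.0 in the Mll3/4-labelled library. Its Mll4-labelled class ratios ran from -0.31 to 0.08, 3 above 0 and 6 below. Rps27 had a class median of 0.25 in the Mll3-labelled library and of 1.24 in the Mll4-labelled library, where it passed 2-fold in all 9 classes. The share of Rps27rt in the counts of both genes was 5.55% in control, 1.81% in the Mll3-labelled, 2.11% in the Mll4-labelled and 4.23% in the Mll3/4-labelled library. By that share the Mll4-labelled library (1.66% to 2.67% over classes) was below every control class (4.65% to 5.90%), although the level of Rps27rt in it was near control.

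Wdr89 had about the same level in most classes of a library. In control it ran from 86.3 to 104.7 CPM in 8 classes and was 20.8 CPM in neutrophil-like cells. It stood at 88.3 CPM over all cells of control, 43.3 in the Mll3-labelled, 49.7 in the Mll4-labelled and 108.5 in the Mll3/4-labelled library. The Mll3-labelled ratios ran from -1.30 in B-cell progenitor-like to -0.81 in neutrophil-like cells, and 8 of 9 passed 2-fold. No class of the Mll4-labelled library passed 2-fold, the ratios running from -0.94 to -0.22, all below 0.

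Gm47283, on the Y chromosome in the annotation, was counted in all 4 libraries and was lowest in the one with almost no Xist. It stood at 434.3 CPM in control, 356.0 in the Mll3-labelled, 44.8 in the Mll4-labelled and 298.3 in the Mll3/4-labelled library. All 9 classes of the Mll4-labelled library were lower, by -3.01 in erythroid progenitor-like to -1.90 in basophil/mast-like cells. The libraries with 0 counts of the Y-linked Ddx3y thus had the higher counts of this gene. Whether its counts came from the Y chromosome was not tested. In the Mll3-labelled library the ratios of Gm47283 were -0.50 to -0.21 and none passed 2-fold. Mid1 and Gm21887, grouped with it as genes of the pseudoautosomal boundary, had class medians of 0.54 and 0.61 there, over 5 and 8 classes.

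Polr2l was higher in both single-deletion libraries, more in the Mll4-labelled one. It stood at 37.7 CPM in control, 77.7 in the Mll3-labelled, 80.9 in the Mll4-labelled and 27.5 in the Mll3/4-labelled library. Ratios ran from 0.79 to 1.29 in the Mll3-labelled library (class median 0.95, and 1.01 with TMM scaling), where 3 of 8 measured classes passed 2-fold, and from 1.61 to 2.05 in the Mll4-labelled library, where 8 of 8 did. In B-cell progenitor-like cells the Mll3/4-labelled ratio was 0.55, the opposite sign to the -0.45 over all kept cells. The other RNA polymerase II subunits did not move with it. In the Mll3-labelled library 0 of 12 subunits passed 2-fold by the class median, and Polr2l was highest at 0.95 with the other 11 between -0.10 and 0.10. Polr2l at 1.70 in the Mll4-labelled library was the only one of 12 past 2-fold, and the list median was -0.13.

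Genes other than the 8 were also shifted in the Mll4-labelled library. In every measured class there, 0.898% of 8686 genes passed 2-fold in the same direction. Of 13 mitochondrially encoded protein genes, 3 were past 2-fold upward in every class, mt-Atp8 at a class median of 2.31, mt-Nd3 at 2.09 and mt-Nd4l at 1.65, while the list ran down to -0.45 and had a median of 0.23. Of 81 measured ribosomal protein genes, 4 were, Rps29 at 1.81, Rps28 at 1.76, Rpl38 at 1.58 and Rps27 at 1.24, while the list median was -0.40. Ribosomal protein genes made up 17.1% of UMIs in this library against 25.9% in control, 27.9% in the Mll3-labelled and 29.5% in the Mll3/4-labelled library. The stress gene Hspa1a had a class median of 3.62 there and of 2.001 in the Mll3-labelled library. In the Mll3-labelled library 0 of the 13 and 0 of the 81 passed 2-fold in every class. These lists were chosen after their values were seen, and the part of RNA quality or library preparation in the shifts of the 8 genes was not tested.

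Gstp1 was higher in the Mll3-labelled library in all 8 measured classes, by 0.98 in erythroid progenitor-like to 1.76 in neutrophil-like cells, and 7 passed 2-fold. It stood at 22.7 CPM in control, 50.8 in the Mll3-labelled, 22.1 in the Mll4-labelled and 38.0 in the Mll3/4-labelled library. The 7 Mll4-labelled class ratios ran from 0.14 to 0.81 although the ratio over all cells was -0.04. The libraries held the classes in different proportions. Of 12 measured cytosolic glutathione transferases, 2 passed 2-fold in the Mll3-labelled library, Gstp1 at 1.17 and Gstm2 at 1.04, measured in 3 classes. The list median was 0.02. Of the Mll4-labelled values, 0 of 7 measured members did.

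Gm2a was lower in both single-deletion libraries and differed strongly between classes in control, from 196.2 CPM in basophil/mast-like to 4.5 CPM in neutrophil-like cells. It stood at 35.8 CPM over all cells of control, 16.3 in the Mll3-labelled, 20.5 in the Mll4-labelled and 14.7 in the Mll3/4-labelled library. The Mll3-labelled ratios lay between -1.37 and -0.54 (class median -1.001, and -0.97 with TMM scaling), with 5 of 9 classes past 2-fold. The Mll4-labelled ratios spread from -3.22 (-4.54 to -2.17) in erythroid progenitor-like to -0.65 (-1.04 to -0.27) in basophil/mast-like cells, intervals that do not overlap, and 7 of 8 passed 2-fold. In B-cell progenitor-like cells the Mll3/4-labelled ratio was -2.32, from 60.2 to 12.1 CPM. Of the 13 listed genes of lysosomal glycolipid degradation Gm2a was the only one past 2-fold in each single-deletion library. Hexa, which acts with it on GM2 ganglioside, stood at -0.07 in the Mll3-labelled and at 0.54 in the Mll4-labelled library. In the Mll3/4-labelled B-cell progenitor-like cells 3 of 11 measured members passed it, Gm2a, Hexa at -1.26 and Psap, the saposin precursor, at -1.23.

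In B-cell progenitor-like cells of the Mll3/4-labelled library, 2 of the 8 genes passed 2-fold, Pttg1 upward at 1.36 and Gm2a downward. There 13.4% of 8740 measured genes passed it, and the clusters compared were not the same ones. Gm47283 at -0.05 (0.08 with TMM scaling), Rps27rt at 0.05 and Wdr89 at 0.24 were near the control level in these cells, and Gstp1 at 0.99 was just under 2-fold (1.12 with TMM scaling). All 3 deleted libraries were set against the same control library, so the directions that they share are not independent.

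Each library held cells of 2 hashtags, which served as a spread within a library. Over the 8 genes and 4 libraries, the class median of the log2 ratio between the hashtags had a median size of 0.05. All 32 such values were within 1.5-fold. Pttg1 stood at 26.7 and 24.6 CPM in the hashtag sets of control, at 99.4 and 103.0 in the Mll3-labelled and at 105.3 and 113.8 in the Mll4-labelled library. The largest class median was that of Gm47283 in the Mll3-labelled library, with 411.1 CPM in the first and 275.3 in the second hashtag set. Its first hashtag set was close to the control sets at 440.0 and 428.1 CPM. Kmt2c differed between the same sets, at 20.8 and 35.2 CPM, so the 2 sets of this library differed in the targeted gene as well. Over all cells Gm2a in the Mll4-labelled library differed more, at 15.6 and 26.9 CPM, with 3 classes measured.

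**Figure D4:**
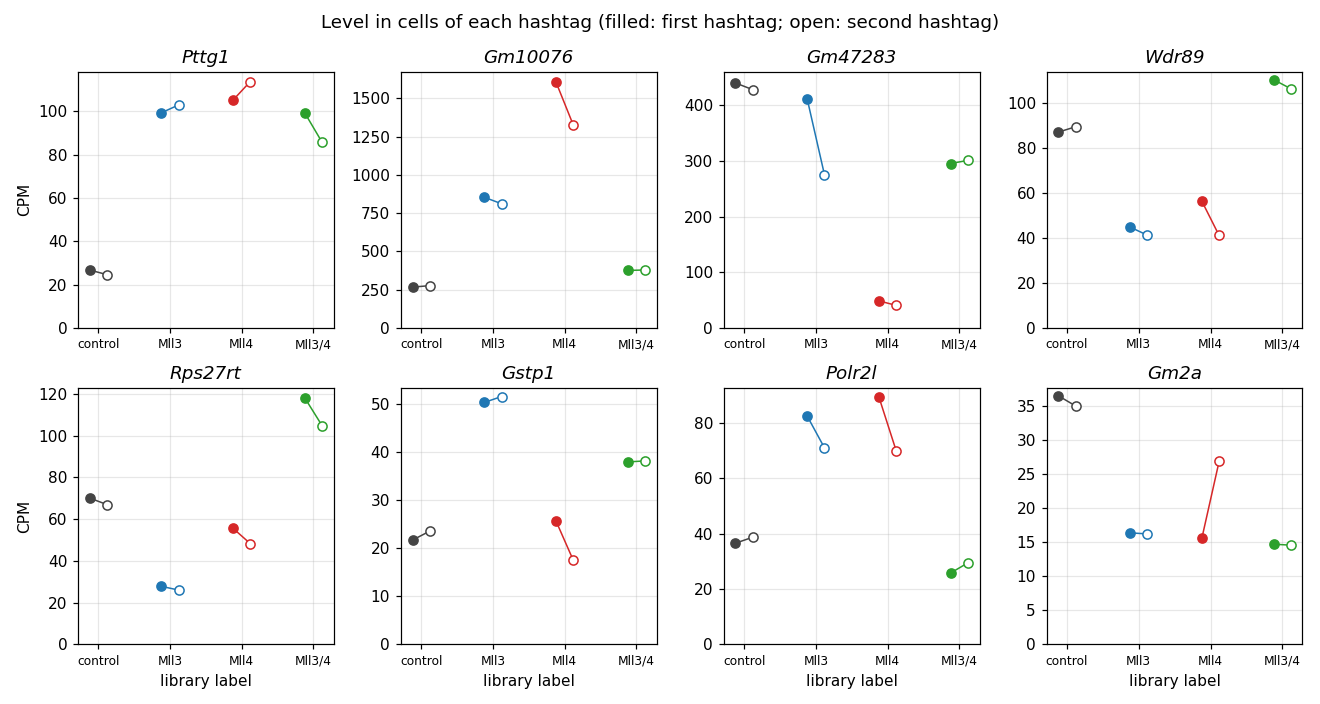
Level in CPM of each gene in cells of the first (filled) and the second hashtag (open) of each library. The hashtag sets of a library lie close together for Pttg1, at 99.4 and 103.0 CPM in the Mll3-labelled library against 26.7 and 24.6 in control, and apart for Gm47283 in the Mll3-labelled library, at 411.1 and 275.3 CPM.

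Of the neighbouring genes, 1 of 70 passed 2-fold by the class median in the Mll3-labelled library, where 1.14% of all genes did. In the Mll4-labelled library 5 of 72 did, 2 of them beside Gm47283, against 4.55% of all genes. Counts this small cannot be told apart from those shares, so nothing follows about position. For each gene except Gm47283, the 10 nearest measured genes were taken, 5 on each side. They lay up to 7586 kb away for Pttg1 and up to 12800.5 kb away for Gm10076. None of the 10 passed 2-fold by the class median beside Pttg1, Gm10076 or Polr2l in either single-deletion library. Beside Wdr89, Prkch, the gene of protein kinase C eta, was at -1.16 in the Mll3-labelled library at a distance of 1852 kb. In the Mll4-labelled library Cmtm6 beside Rps27rt was at 1.10, Ptprcap beside Gstp1 at -1.13 and Lyrm7, 237 kb from Gm2a, at 3.22. Lyrm7, a mitochondrial assembly factor of respiratory complex III, passed 2-fold in every measured class of both single-deletion libraries, with medians of 2.09 and 3.22, in the direction opposite to Gm2a. For Gm47283 the measured genes on the Y chromosome were Ddx3y and Eif2s3y in the Mll4-labelled library only.

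**Figure D5:**
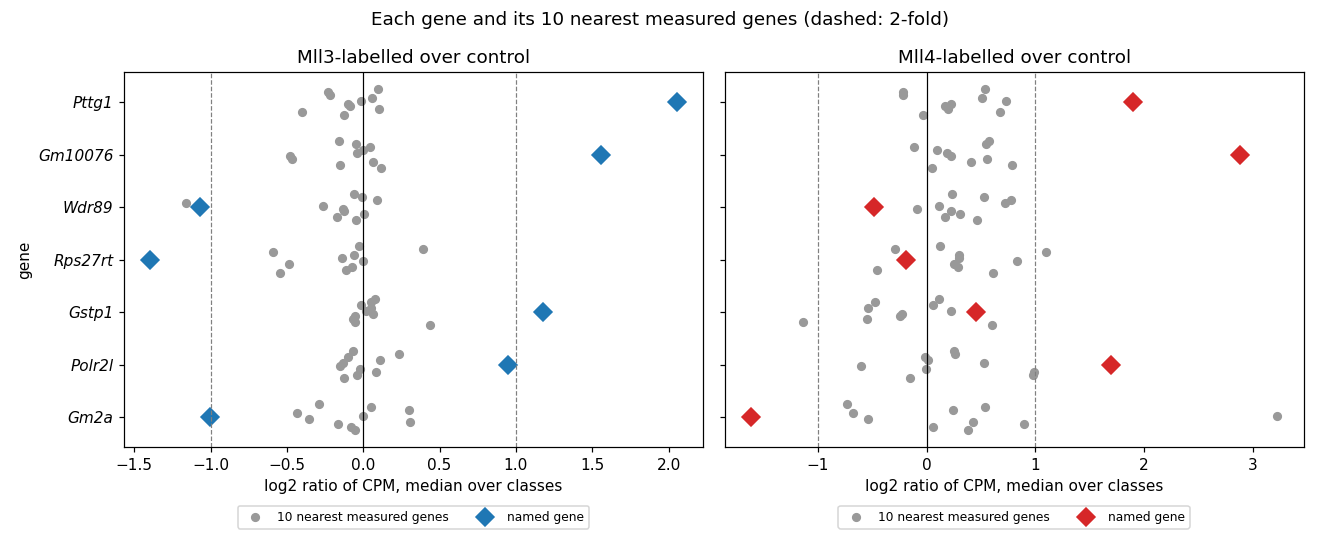
Class median log2 ratio to control of 7 of the genes (diamonds) and of their 10 nearest measured genes (grey points) in the Mll3-labelled (left) and the Mll4-labelled library (right), with dashed lines at 2-fold. Pttg1 at 2.05 and 1.89 lies outside the range of its neighbours in both panels, and the single far point beside Gm2a on the right is Lyrm7 at 3.22.

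For each of the 8 genes, the gene most like it in class ratios was found by the root mean square difference over both single-deletion comparisons. The search covered only genes measured in every class where the gene itself was measured, between 2286 and 5673 genes. Hist1h2ap, a replication-dependent histone H2A gene, was nearest both to Gm10076 (0.44 log2 units over 18 values) and to Pttg1 (1.12 over 17). Polr2l was nearest to the mitochondrially encoded mt-Nd4l (0.26), Wdr89 to Rpl9-ps6 (0.29), Gstp1 to Cenpv (0.42), Rps27rt to H2-T23 (0.47), Gm2a to Rnaset2a (0.79) and Gm47283 to Lgals1 (1.03). Lgals1 was nearest to Gm47283 but not alike in direction throughout. Its class median was 0.65 in the Mll3-labelled library, where Gm47283 was at -0.38, and -1.68 in the Mll4-labelled library, where Gm47283 was at -2.57.

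Counts were not corrected for RNA free in the droplets, and its part was not tested. In control each of the 8 genes had its lowest level in neutrophil-like cells.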

How the data were processed

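The deposited matrices hold UMI counts per gene and antibody and cell, as raw whole numbers with no normalization, per the file headers and the values. They were made with Cell Ranger 6.1.2 on mm10, per the submitters' processing notes. Barcodes with at least 500 genes, at least 1000 UMIs and at most 10% mitochondrial UMIs were kept. The top Scrublet scores, at 0.8% per 1000 barcodes, and cells positive for both hashtags were removed as doublets, 8.44% to 9.68% per library. The remaining cells of all libraries were clustered together in scanpy 1.11.5 (2000 variable genes, 30 principal components, 15 neighbours, Leiden resolution 1), without the 8 genes, Xist, Y-linked or mitochondrial genes. Clusters were named from 12 lists of markers, and that rule was adjusted after cluster names had been seen. Of the barcodes, 9 to 24 were shared by each pair of libraries.

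Counts were summed per class and library and scaled to CPM, a common library total. Log2 ratios set counts under 3 to 3 and have conditional binomial intervals; levels have exact Poisson intervals. A class needed 50 cells in both libraries and a gene 20 expected counts in both. The interval was tried on simulated Poisson counts, which have no extra spread between cells or libraries. That trial cannot show how the interval covers such spread. There were no replicate libraries, so no test was run. Positions and sequences are from GENCODE M21, which holds 32235 of the 32285 identifiers. TMM factors came from edgeR 4.0.16. The members and lists were chosen with earlier results of these data known. The named genes are the 8, the genes of 8 lists, the nearest neighbours past 2-fold, the most alike gene of each, and the 5 other genes per library and direction with the largest smallest class ratio among those past 2-fold in every class.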

Additional observations from a re-analysis of the deposited data

How the results depend on the processing

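Ratios of the 8 genes were recomputed under other scaling, count minimums, a pseudocount of 1 CPM, other cell filters, doublets kept, other clusterings, each hashtag alone and all cells as 1 class; leaving out the neutrophil-like cells was chosen after seeing the data. Of 13 ratios past 2-fold, all 165 recomputed values kept their sign and 161 stayed past 2-fold. The 4 that did not were Gm2a, 3 of them Mll3-labelled and 1 Mll4-labelled, at -0.80 with all cells as 1 class. Of 11 ratios under 2-fold, 125 of 136 values kept their sign and 129 stayed under it. The number of the 8 genes past the limit in every class of the Mll3-labelled library was 2, beside 32 of all 10891 genes. It became 4 with the second hashtag only (15 of 9507), 7 with all kept cells as 1 class (544 of 14050), 6 at 1.5-fold (101 of 10891) and 0 at 4-fold (6 of 10891). In the Mll4-labelled library it was 4, beside 78 of 8686, and became 1 at 4-fold (10 of 8686) and 5 with the first hashtag only (77 of 7595) or at 1.5-fold (528 of 8686), Gm2a being added. It was 3, without Pttg1, with trimmed mean scaling, with at least 1000 genes and 2500 UMIs per cell, and with the mean share per cell. The class median of Pttg1 in the Mll3-labelled library was 1.86 without neutrophil-like cells. At the 5079 UMIs of the median cell in the Mll4-labelled library, several class ratios of Gstp1 and Gm2a rest on few counts. No paired analysis was possible because each group has 1 library and the labels carry no replicate numbers that pair samples.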

Other observations

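Some genes other than the 8 passed 2-fold in every class where they were measured, in either or both single-deletion libraries. Downward, Nefh did so in 4 classes of the Mll3-labelled and 3 of the Mll4-labelled library. Slc15a2 did so in 5 classes, Tjp1 in 4 and Syce1 in 3, each in the Mll3-labelled library only. Nefh, a neurofilament gene, had 3376 counts in control and 85 in the Mll3-labelled, 13 in the Mll4-labelled and 207 in the Mll3/4-labelled library. Syce1, a gene of the meiotic synaptonemal complex, had 269 counts in control and 0 in each of the other 3 libraries. Slc15a2, a peptide transporter gene, had 642 counts in control, 0 in the Mll3-labelled, 44 in the Mll4-labelled and 222 in the Mll3/4-labelled library. Tjp1, the tight junction gene ZO-1, was at 25.6 CPM in control, 5.01 in the Mll3-labelled, 14.2 in the Mll4-labelled and 0.439 in the Mll3/4-labelled library.

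In the upward direction Lyrm7 went from 2.76 CPM in control to 12.3 in the Mll3-labelled and 16.6 in the Mll4-labelled library, with 3.15 in the Mll3/4-labelled library. Hist1h2ap went from 232.9 to 739.2 and 1273 CPM, with 305.5 in the Mll3/4-labelled library. Like Gm10076, these had the Mll3/4-labelled library nearest to control over all kept cells. Of the 6783 cells of that library 4782 were B-cell progenitor-like, against 468 of 7034 in control, so these levels compare different mixtures of cells. The stress gene Hspa1a was at 3.70 CPM in control, 12.6 in the Mll3-labelled and 32.8 in the Mll4-labelled library. Rps6ka6 and Atp9a passed 2-fold upward in each of 3 classes of the Mll3-labelled library, and the short RNA Bc1 in 3 classes of the Mll4-labelled library. Of the 32 genes past 2-fold in every class of the Mll3-labelled library and the 78 of the Mll4-labelled library, 5 were in both lists, 15.6% of the first and 6.41% of the second. All 5 had the same direction in both, in comparisons that share the control library.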
